A study of Homo sapiens with 2 samples.

Results

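The zinc finger gene clusters of human chromosome 19 were examined in a map of chromatin contacts from HEK293T cells, an established line from human embryonic kidney that makes the large T antigen of SV40. Members were taken by position, as 5 windows of the hg19 build that hold the main clusters of KRAB zinc finger genes. The windows lie at 19.8 to 24.3, 36.5 to 38.4, 44.2 to 45.0, 52.3 to 54.0 and 56.5 to 59.0 Mb of chromosome 19. Together they span 11.4 Mb, or 19.7% of the 58 Mb of chromosome 19 that carried a compartment score. By the rule they held 10 of 2883 scored bins of 1 Mb, 2 of 3845 contact domains and 0 of 3014 loop anchors in the series. The 2 libraries, replicates 1 and 2 of 1 group, were in situ Hi-C of formaldehyde-fixed cells with no other treatment, cut with MboI. In situ Hi-C joins and sequences DNA ends that lie close together in the nucleus. The 3 deposited tables name no library and were taken to describe both together. No value therefore has a replicate error, and no difference could be tested over samples. Cell line markers could not be checked, since the tables hold no expression.

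KRAB zinc finger proteins carry a KRAB domain and a row of C2H2 zinc fingers, each of which contacts a few bases of DNA. The KRAB domain recruits the corepressor TRIM28, through which SETDB1 and HP1 proteins can be brought to DNA, and many family members bind and silence transposable elements. The genes multiplied by tandem duplication, which left arrays of related genes on chromosome 19. In other human cells these arrays are known for heterochromatin marks that also lie over the zinc finger exons.

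The rule names 40 genes, and all 40 were found in the RefSeq gene table. That table is of the GRCh38 build, so it was used for names and gene order only, and no gene was placed on the hg19 map. In chromosome order the 40 genes fell into 5 runs, separated by 106, 187, 290 and 124 other protein-coding genes, against at most 15 between neighbours within a run. The runs were matched to the windows by their order along the chromosome. The first run, from ZNF253 to ZNF254, holds 19 of the genes and was matched to the window at 19.8 to 24.3 Mb. It includes ZNF91, known to repress SVA elements, ZNF93, known to repress LINE-1 elements, and ZNF43, ZNF85, ZNF208, ZNF257 and ZNF431. The second run is ZNF529, ZNF382 and ZNF567. The third holds 7 genes from ZNF221 to ZNF227, among them ZNF224, described as a transcriptional repressor. The fourth is ZNF28, ZNF468, ZNF320 and ZNF816. The last run has ZNF471, ZNF460, ZNF304, ZNF547, ZNF549, ZNF551 and ZNF587. Between the first and last genes of these runs, 86 of 101 protein-coding genes (85.1%) had a name of ZNF and a number, against 250 of 1451 (17.2%) on the whole chromosome. The share was 34 of 36 in the first run and all 4, 11 and 6 genes in the next 3. It was lowest in the last, at 31 of 44. These shares were partly fixed in advance, since all 40 listed genes have such names and each run begins and ends with one. Listed genes were 3 of the 4 in the second run and 4 of the 6 in the fourth. The shares describe the runs, not the whole windows. The ZNF-named genes outside the runs were not placed on the map either. The parts of chromosome 19 outside the windows may therefore hold such genes too, and are not a set chosen to lack them.

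The stretches upstream of the genes showed how alike those of the first run are, and whether MboI, which cuts at GATC, had a site there. RefSeq sequence (GRCh38.p14) was found for 33 of the 40 genes, and the 250 bases before each gene start were compared. The 16 sequences of the first run were a median of 80.4% identical over 120 pairs (63.6 to 92.0%). Pairs from different runs had a median of 52.4% over 377 pairs (46.4 to 58.4%). The 5 sequences of the ZNF221 to ZNF227 run had a median of 57.2% (54.0 to 70.0%), and the 6 of the last run 54.0% (49.6 to 56.8%). The 3 sequences of the 52.3 to 54.0 Mb run had a median of 63.6% (58.4 to 71.6%), with no pair below the highest pair from different runs. The 3 of the 36.5 to 38.4 Mb run had a median of 55.6% (52.0 to 56.4%). The upstream stretches of ZNF529 and ZNF382 overlap on opposite strands. These identities describe the reference genome, not the Hi-C libraries.

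The most alike pair was ZNF714 and ZNF431 at 92.0%, followed by ZNF208 and ZNF91 at 88.0%. These 4 are shown with ZNF224 from another run, each 5′ to 3′ on the gene's strand, to let the shared letters be seen beside an unlike one. Capitals mark GATC, the MboI site. On GRCh38.p14 they are chr19:21081953-21082202 (plus strand, ZNF714), chr19:21141790-21142039 (plus, ZNF431), chr19:22010944-22011193 (minus, ZNF208), chr19:23395472-23395721 (minus, ZNF91) and chr19:44094111-44094360 (plus, ZNF224). Those positions cannot be set against the hg19 positions of the map.
ZNF714: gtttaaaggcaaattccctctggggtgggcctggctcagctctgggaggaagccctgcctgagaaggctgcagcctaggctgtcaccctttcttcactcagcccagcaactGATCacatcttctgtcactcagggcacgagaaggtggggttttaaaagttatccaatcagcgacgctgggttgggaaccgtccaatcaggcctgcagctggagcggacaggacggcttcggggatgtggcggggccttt
ZNF431: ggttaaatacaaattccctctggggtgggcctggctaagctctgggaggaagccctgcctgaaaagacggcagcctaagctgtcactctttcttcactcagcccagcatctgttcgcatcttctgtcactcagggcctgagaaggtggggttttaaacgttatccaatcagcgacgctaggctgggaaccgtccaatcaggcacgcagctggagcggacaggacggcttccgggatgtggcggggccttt
ZNF208: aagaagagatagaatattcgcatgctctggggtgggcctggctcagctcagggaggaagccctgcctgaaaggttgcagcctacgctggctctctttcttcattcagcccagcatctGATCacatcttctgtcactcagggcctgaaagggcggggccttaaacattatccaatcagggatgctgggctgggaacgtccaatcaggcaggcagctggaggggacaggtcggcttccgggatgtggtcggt
ZNF91: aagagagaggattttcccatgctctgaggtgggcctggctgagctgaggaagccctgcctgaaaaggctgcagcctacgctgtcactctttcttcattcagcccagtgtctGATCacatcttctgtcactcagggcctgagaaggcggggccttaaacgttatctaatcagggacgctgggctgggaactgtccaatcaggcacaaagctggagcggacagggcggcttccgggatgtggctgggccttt
ZNF224: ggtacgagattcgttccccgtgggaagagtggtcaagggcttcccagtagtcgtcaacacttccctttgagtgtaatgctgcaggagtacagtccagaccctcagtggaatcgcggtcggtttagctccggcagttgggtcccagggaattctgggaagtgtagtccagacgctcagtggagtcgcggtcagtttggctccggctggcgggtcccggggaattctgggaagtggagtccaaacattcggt

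A GATC was present in 13 of the 16 upstream stretches of the first run and in 3 of the 17 of the other runs. It was present in 412 of 1152 other protein-coding genes of chromosome 19 (35.8%) and in 35.8% of all 35116 upstream stretches of the table. In 11 of the 13 the site began within 6 bases of the same place, a median of 133 bases before the gene start. All 13 held it inside the letters TGATCAC, which occurred in none of the other 17 and, counting both strands, in 1.39% of all upstream stretches. These letters and the span of 6 bases were chosen with the sequences known, so the counts only describe them. ZNF431, whose stretch was the most like that of ZNF714 among those compared, lacked the site. The GC content of the 33 stretches had a median of 56.4% (quartiles 54.4 and 59.2%), against 62.8% (57.2 and 68.8%) for the other genes of the chromosome. They held a median of 11 CG pairs against 17. The runs differed in both. The first run had a median GC content of 55.6% and 8 CG pairs, and the other 4 runs together 57.6% and 16. The 36.5 to 38.4 Mb run (67.2% and 20 CG pairs, 3 sequences) and the 52.3 to 54.0 Mb run (66.8% and 19, 3 sequences) lay above the medians of the other genes.

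All 10 bins of the windows had negative compartment scores, close to the lowest of the chromosome. The compartment score separates the genome into 2 sets of regions that contact each other preferentially, usually called A and B. The sign convention is not stated in the labels or the table, so neither sign was named A or B. In the first window the 4 bins scored -0.178, -0.162, -0.167 and -0.156, in order along the chromosome. The bin at 37 to 38 Mb, of the ZNF529 window, scored -0.149. The bin at 44 to 45 Mb, of the ZNF221 to ZNF227 window, scored -0.159. At 52 to 53 and 53 to 54 Mb the scores were -0.151 and -0.169, and at 57 to 58 and 58 to 59 Mb they were -0.167 and -0.137. The windows thus differed little among themselves, from -0.178 to -0.137 with a median of -0.161. On a chromosome whose scores run from -0.181 to 0.181, all 10 lay among the 18 lowest of 58 bins.

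Outside the windows the signs were mixed. Negative bins made up 25 of 48 there (52.1%, 95% Wilson interval 38.3 to 65.5%), against 10 of 10 in the windows (72.2 to 100%). Over all of chromosome 19 the share was 60.3%, and over all chromosomes 51.1%. The median score outside was -0.017, so the windows were lower by 0.143 in their medians, and the 25 negative bins outside had a median of -0.110. Neighbouring bins were correlated (0.680 across chromosome 19), so bins are not independent and these intervals are too narrow. The lowest bin of the chromosome, at 9 to 10 Mb (-0.181), lay outside the windows, as did the highest, at 5 to 6 Mb (0.181). Of the 48 bins counted as outside, 5 lay partly in a window but by no more than 50% of their length. All 5 were negative, from -0.161 to -0.087. Among the 43 bins with no overlap, 20 (46.5%) were negative and the median score was 0.027.

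**Figure D1:**
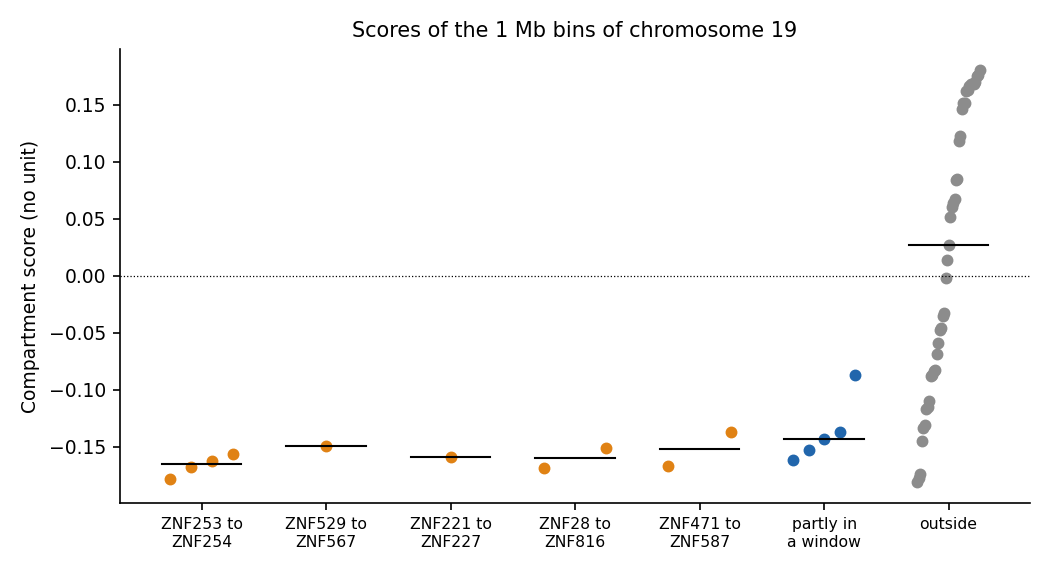
Compartment scores of the 58 scored 1 Mb bins of chromosome 19 (vertical axis, no unit). Groups along the horizontal axis are the windows, named by first and last listed gene, then bins partly in a window and bins outside. Here bins outside are those with no overlap with a window. Points are bins and lines are medians; the 10 window bins lie between -0.178 and -0.137, whereas bins outside run from -0.181 to 0.181.

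Each window sat in a longer run of negative bins. Chromosome 19 had 7 negative and 5 positive runs, with the unscored bins at 25 to 27 Mb breaking a run. The windows touched 4 of the negative runs and none of the positive ones. Left of the first window the score turned from 0.152 at 18 to 19 Mb to -0.143 at 19 to 20 Mb, the bin in which the window begins. The negative run went on past the window to the unscored bins and resumed at 27 Mb. The second window closed a negative run: the bin at 38 to 39 Mb scored -0.137 and the next 0.085. The third window lay in the shortest of these runs, 43 to 46 Mb, between 0.014 at 42 to 43 Mb and 0.170 at 46 to 47 Mb. The last windows shared the run from 51 Mb to the end of the map. Between them the scores were less negative, -0.115 and -0.083 at 54 to 56 Mb, than in either window.

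**Figure D2:**
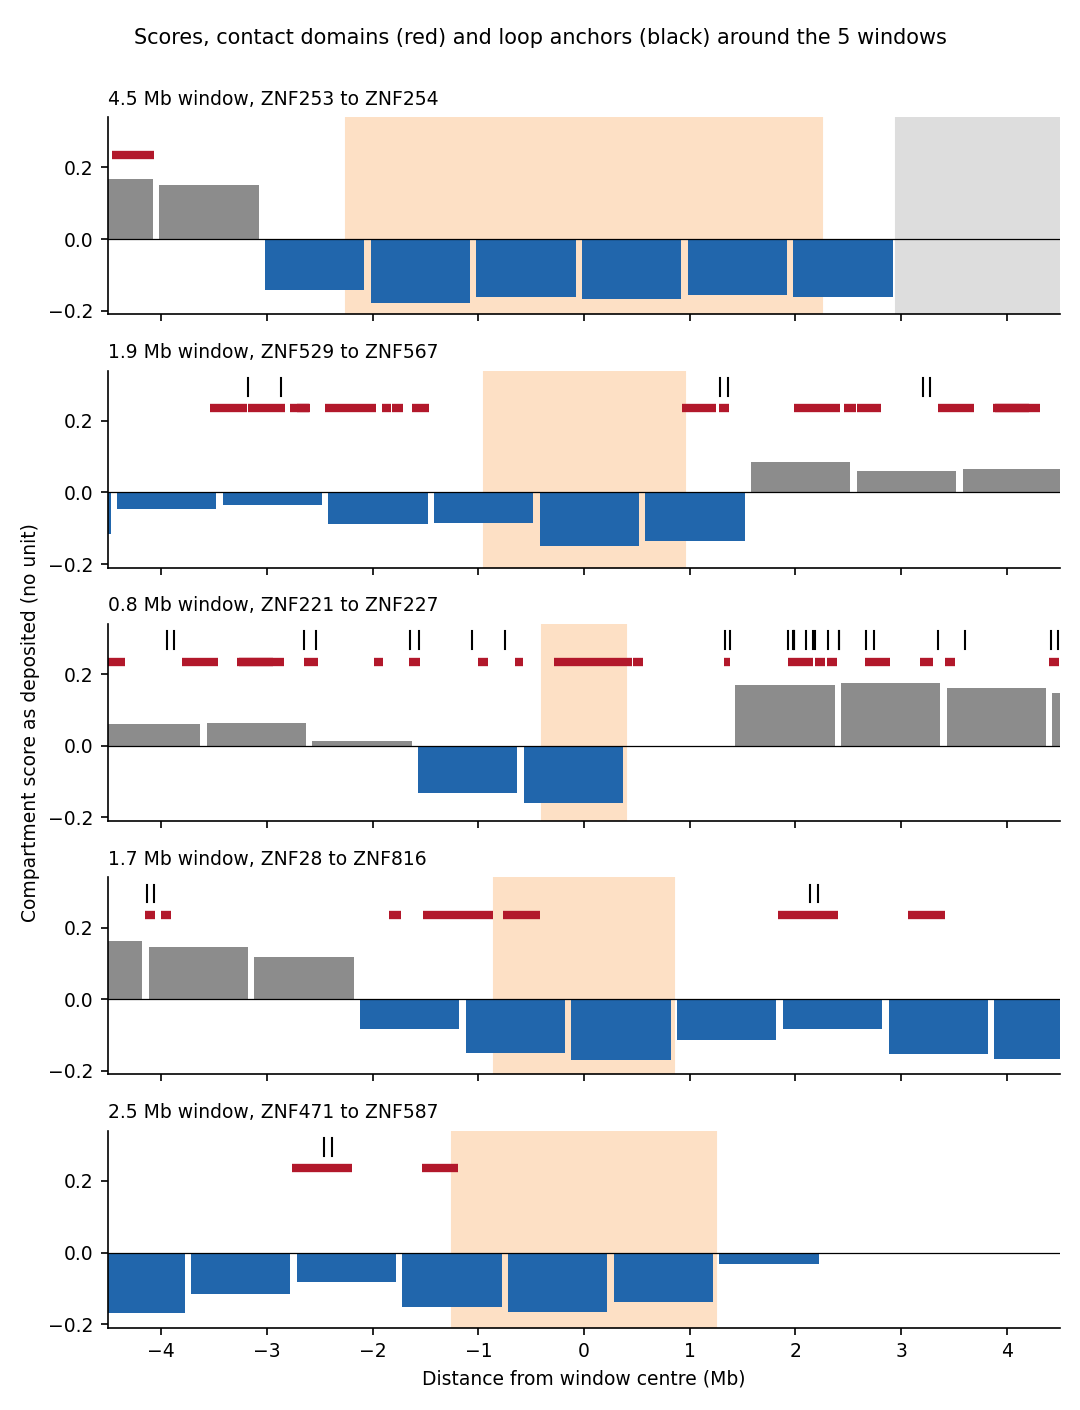
Compartment score (vertical axis, no unit) of the 1 Mb bins within 4.5 Mb of the centre of each window (horizontal axis, distance in Mb). Orange marks the window, blue negative and grey positive bins, light grey bins without a score, red bars listed contact domains and black ticks loop anchors. The bin right of the third window scored -0.002 and its bar is too short to see; no tick falls in any orange area, and the first window holds no red bar.

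Contact domains, which are stretches of sequence that contact themselves more than their surroundings, were sparse in the windows. There were 2 domains with a midpoint in the 11.4 Mb, or 0.175 per Mb (95% Poisson interval 0.021 to 0.634). The rest of chromosome 19 had 56 in 46.6 Mb, or 1.20 per Mb (0.908 to 1.56), and all chromosomes had 1.33 per Mb. The ratio of windows to rest was 0.146 (exact interval 0.017 to 0.553), and at the density of the rest the windows would hold 13.7 domains. These intervals cover counting error only, and calls on 1 map are not replicates. The windows at 19.8 to 24.3, 36.5 to 38.4 and 56.5 to 59.0 Mb held no midpoint, and the other 2 windows held 1 each. By bins, 2 of 10 window bins held a midpoint, against 53.4% of all bins of the chromosome, 13 of 25 negative bins outside and 16 of 23 positive ones.

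The low density was also seen beside negative bins alone. Negative bins outside the windows had 26 domains in 23.6 Mb, or 1.10 per Mb (0.720 to 1.61), a ratio of 0.159 (0.018 to 0.636). Positive bins had 1.30 per Mb (0.880 to 1.86). A closer comparison, chosen after the values were seen, took the 8 bins outside the windows that scored no higher than the highest window bin. These had 6 domains in 6.6 Mb, or 0.909 per Mb (0.334 to 1.98), and the ratio was 0.193 with an interval of 0.019 to 1.08 that reaches past 1. At this number of domains, and with bins counted at full length, a difference from equally low-scoring bins was not resolved. Any length without sequence in those bins was not taken out, so their density may be understated and the ratio too high. Of those 8 bins, 4 lie partly in a window and entered with the length outside it. The other 4 were the bin at 9 to 10 Mb, which held 3 domains and 2 loop anchors, and the bins from 27 to 30 Mb, right of the unscored bins, which held none. Whether any of these bins hold zinc finger genes was not examined.

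**Figure D3:**
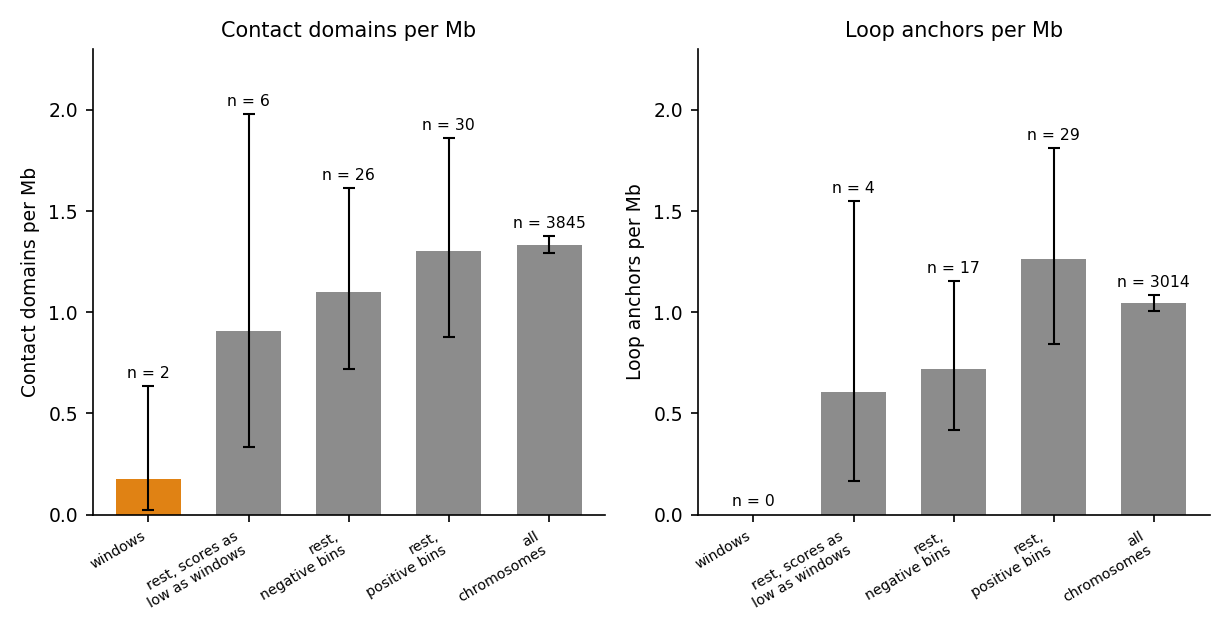
Contact domains per Mb (left) and loop anchors per Mb (right) in the windows (orange) and in other parts of the map (grey), with the number of features above each bar. Error bars are 95% Poisson intervals of the counts, drawn only where the count is above 0; the windows stand at 0.175 domains and 0 anchors per Mb.

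The longest domain listed in any window spanned 44315001 to 45050000 (735 kb), which covers 85.6% of the window matched to ZNF221 to ZNF227 and ends 50 kb past it. It ranked 4 by length among the 58 domains on the chromosome. The other, at 52380001 to 52730000 (350 kb), covered 20.6% of the window matched to ZNF28, ZNF468, ZNF320 and ZNF816, at its left end. Each is the only domain of its window, and so the highest-scoring one too. A domain at 38380001 to 38700000 reached 20 kb into the second window, and one at 56215001 to 56560000 reached 60 kb into the last. In all, domains covered 9.78% of the window length, against 32.6% of the rest of the chromosome. Outside the windows the share was 38.6% in negative bins, 26.3% in positive bins and 23.0% in the equally low-scoring bins. Most of the covered window length was the 735 kb domain. Without the ZNF221 to ZNF227 window the covered share of the windows was 4.06%, and without the first window it was 16.2%.

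Both window domains had low caller scores. The caller's score, for which the table and labels give no definition, was 0.770 for the domain at 44315001 and 0.704 for that at 52380001. They ranked 6 and 5 from the lowest of 58, and 4.14% and 2.50% of all domains in the series scored lower. The median outside the windows was 1.18 (quartiles 1.03 and 1.34). Domains outside had a median length of 170 kb (quartiles 100 and 362.5 kb). In negative bins outside the median was 252.5 kb (102.5 and 410 kb), and in the equally low-scoring bins 327.5 kb. Both window domains were longer than these medians, but 2 values give no distribution. The 350 kb domain lay below the upper quartile of all domains outside and of those in negative bins. Low scores also occurred beside a window: the lowest of the chromosome, 0.523, belonged to a 660 kb domain at 51630001 to 52290000, which ends 10 kb before the fourth window. The longest domain of the chromosome, 1600 kb at 31160001 to 32760000, lay outside the windows and scored 1.23. Neither window domain had a loop at its corner. Most of the 58 domains had none either, since only 11 loops of the chromosome lay at a domain corner.

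**Figure D4:**
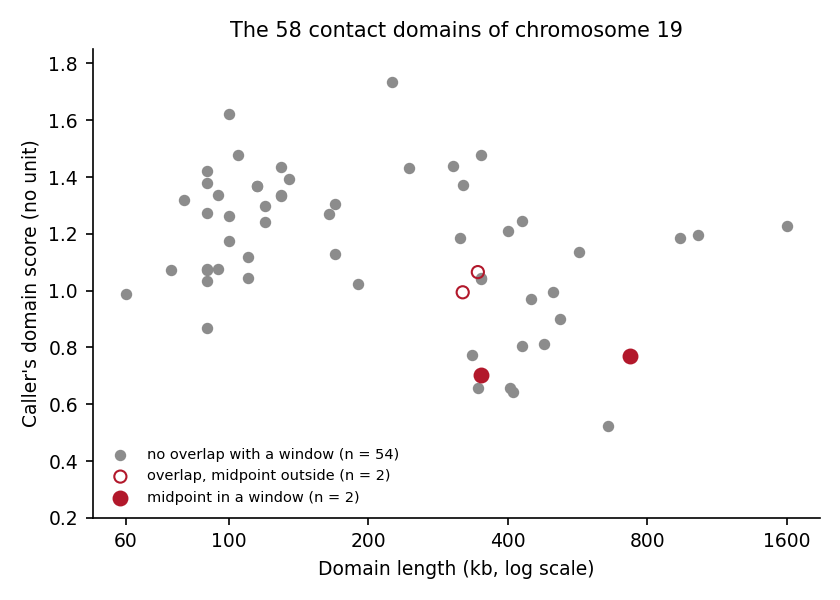
Caller's score (vertical axis, no unit) against length (horizontal axis, kb, log scale) for the 58 listed domains of chromosome 19. Filled red points are the 2 domains with midpoints in a window, at 350 and 735 kb with scores of 0.704 and 0.770; open red points overlap a window with their midpoint outside.

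Most of the window length lay in long stretches with no listed domain. Of the 11.4 Mb, 10.3 Mb (90.2%) was outside any domain. Chromosome 19 had 56 domain-free stretches with a median of 0.250 Mb, and 4 of the 6 longer than 2 Mb reached into a window. The longest, 12.1 Mb from 17985001 to 30095000, held the whole first window and also the unscored bins. Cut at those bins it still spanned 7.02 Mb, from 17985001 to 25000000. On all chromosomes, with stretches cut at unscored bins in the same way, 15 of 3565 were at least that long, itself included, and they lay on 10 chromosomes. The 12.1 Mb stretch went on past the unscored bins, and the bins from 27 to 30 Mb, outside any window, also held no domain midpoint or loop anchor. The stretches from 35985001 to 38380000 (2.40 Mb) and 52730001 to 54985000 (2.26 Mb) held 1.88 and 1.27 Mb of the second window and of that at 52.3 to 54.0 Mb. The one from 56560001 held 2.44 Mb of the last window and ran to the end of the last bin, which may extend past the chromosome's end. Domain-free stretches were not limited to windows. The second longest, 4.72 Mb from the start of the chromosome, touched none and held 4 loop anchors.

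**Figure D5:**
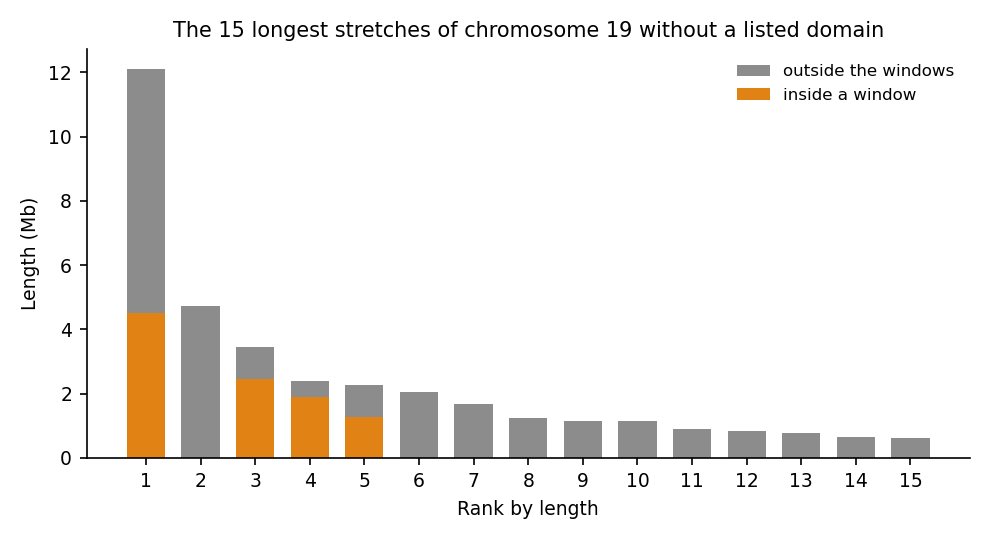
The 15 longest stretches of chromosome 19 without a listed domain, ordered by length (horizontal axis, rank; vertical axis, Mb), with the length inside a window in orange. Ranks 1, 3, 4 and 5 reach into windows, with 4.50, 2.44, 1.88 and 1.27 Mb inside them.

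No loop was listed in the windows. A loop is a focal excess of contacts between 2 short anchors, and in many cells the insulator protein CTCF and cohesin sit at both. Chromosome 19 had 23 loops, with 46 anchors, 41 to 125 observed contacts each and spans of 50 to 570 kb. None had an anchor in a window, none joined 2 windows and none spanned one. Anchors lay in 34.5% of the bins of the chromosome, including 8 of the 25 negative bins outside the windows, and in 0 of 10 window bins. The rest of the chromosome had 0.987 anchors per Mb (0.723 to 1.32), its negative bins 0.720 (0.420 to 1.15) and its positive bins 1.26 (0.844 to 1.81). At these densities the windows would hold 11.3, 8.21 and 14.4 anchors. The windows' count of 0 has an interval of 0 to 0.324 per Mb. The 8 equally low-scoring bins had 4 anchors, or 0.606 per Mb (0.165 to 1.55), at which the windows would hold 6.91. No ratio to these bins was computed for anchors, and overlap of 2 separate intervals cannot decide it. Whether the windows differ from these bins in anchors was therefore not tested. The 2 anchors of a loop lie close together, so they are not independent counts. The list holds only loops that passed the caller's threshold. How many contacts were sequenced in the windows is not in these tables, so the part of depth in these counts was not tested.

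The nearest loops lay within 1 Mb of a window in 3 cases. The closest joined 38730001 to 38740000 and 38810001 to 38820000, 0.335 Mb right of the ZNF529, ZNF382 and ZNF567 window, with 66 contacts. It was enriched 2.14-fold over the contacts expected from the surrounding donut (95% Poisson interval 1.66 to 2.73). The next joined 43530001 to 43540000 and 43850001 to 43860000, ending 0.345 Mb left of the ZNF221 to ZNF227 window, with 75 contacts against 16.0 expected. At 4.68-fold (3.68 to 5.87) it had the highest enrichment of the 23. On the other side of that window a loop joined 45930001 to 45940000 and 45980001 to 45990000, 0.935 Mb away, with 86 contacts and 2.14-fold enrichment (1.71 to 2.64). The first window was farthest from any anchor, at 3.52 Mb to the left and 9.98 Mb to the right. The fourth was 3.22 Mb and 1.29 Mb away, and the last was 1.14 Mb from the nearest anchor, which lies on its left, with none to its right. The median enrichment of the 23 loops was 2.63-fold. An enrichment or a share of loops at domain corners cannot be given for the windows, because they held no loop.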

How the data were processed

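The 2 libraries are labelled replicates of 1 group, with no statement that they came from separate cultures. The build was hg19, and BWA 0.7.8, Picard and FastQC 0.11.7 are named, per the submitters' processing notes; neither their roles, nor the domain caller, nor how replicates were combined is stated in the labels or file headers. The authors deposited a compartment score per 1 Mb bin, a caller's score per contact domain on 5 kb bins, and HiCCUPS loops at 5 and 10 kb. The deposited loop table gives the observed count of contacts, the contacts expected from 4 neighbourhoods and q-values. Per the values, squared scores of chromosome 19 sum to 1, so levels were compared within chromosome 19.

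Bins with over 50% of their length in a window, domains by midpoint and anchors by centre were assigned with Python 3.11.15, pandas 2.3.3 and scipy 1.17.1. Bins counted as 1 Mb each. Rates have exact Poisson, shares Wilson and ratios exact conditional binomial 95% intervals, for counting error only. No test was run, because the deposited values are not given by library. A domain corner was the larger of 50 kb or 0.2 of the domain's length. Upstream sequences were aligned globally with Biopython 1.88 (match 1, mismatch -1, gap opening -3, extension -0.5), and identity is matches over 250 bases. Counting was tested on simulated data. Members, lists and comparisons were chosen with earlier results of these data known. Named features were all window bins, each window's longest and highest-scoring domain, and the longest domain and extreme bins outside; with no window loop, the 3 nearest loops were named after their values were seen. The printed upstream sequences were chosen likewise. Zinc fingers in the proteins and the corepressor genes, both planned, were not analysed here.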

Additional observations from a re-analysis of the deposited data

How the results depend on the processing

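With bins of any overlap, all 15 were negative (100%) and their median score stayed below that of the rest. Bins wholly inside a window and the sets that leave a window out are subsets of the 10 negative bins, so they could not change that share. The loop filters and the sets that leave a window out only remove anchors, so the windows' count of 0 could not change; loops up to 2 Mb and loops with 10 kb anchors removed none of the 46 anchors on the chromosome. The domain density ratio stayed below 1 under all alternatives. Where a window domain remained, it ran from 0.072 (domains wholly inside, which can only lower it) to 0.303 (domains with any overlap). Beside the equally low-scoring bins its interval reached 1.08. The ratio was 0 among domains scoring above the median of all, where the windows held none of 26. That 0 was fixed by the low scores of both window domains. The length and score of window domains rest on 1 to 4 domains. Their median length exceeded that of the rest by 372.5 kb, and that of negative bins outside by 290 kb. The excess over the rest was 180 kb with any overlap, wholly inside or without the window at 44.2 to 45.0 Mb. It was 565 kb without the window at 52.3 to 54.0 Mb. The median score difference between window domains and the rest, -0.45, was -0.31 with any overlap. The covered share of 9.78% was 16.2% without the first window and 4.06% without that at 44.2 to 45.0 Mb. Loop enrichment and corner shares, and lengths or scores of window domains above the median score, gave no value. No paired analysis was possible because the tables carry no column for either library; for the same reason neither library could be left out. A bin of 1 Mb is longer than the window at 44.2 to 45.0 Mb, which limits what its score can show.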
